A study of Mus musculus with 3 samples.

Results

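Genes that were silent in α6+/Sca1- cells of mouse back skin and carried a large H3K27me3 value are described here. Genes were chosen by 2 measured values, H3K27me3 (20000 or more, from the table the authors deposited) and the mean TPM over the 3 libraries (under 1), and genes whose symbols start with Hox were left out. TPM is a level corrected for gene length and library size, so it can be compared between genes. The rule found 702 of the 44625 gene entries, and grouping genes that share 1 value gave 342 domains. Because the rule used the H3K27me3 value and the mean TPM, that these genes were silent and marked is how they were chosen and not a result.

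H3K27me3 is trimethylation of lysine 27 of histone H3. It is placed by Polycomb repressive complex 2, read by Polycomb repressive complex 1, and associated with genes kept off in a given lineage. In vertebrate cells it is known to cover CpG-rich starts of genes that encode developmental regulators, and it can spread over long stretches around them. In the epidermis and hair follicle, Polycomb proteins are known to hold genes of other lineages silent.

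Polyadenylated RNA was sequenced from 3 samples, all of 1 group. The cells came from back skin of mice with the genotype WT at an age of 56 days, when hair follicles were in their second telogen (rest), and were sorted as positive for integrin alpha6 and negative for Sca1, a population that holds hair follicle stem cells. No treatment, second genotype or second age was part of the group. The labels speak of biological duplicates for 3 samples, so it is not known whether every library is an independent collection, and each SD may be partly technical. The H3K27me3 value carried no unit, and the cells in which it was measured were not stated. Among the 184 values shared by genes of 1 chromosome, the stretch from the earliest gene end to the latest gene start never exceeded the value. A width in bases would give this. Another 2 values were shared by genes on different chromosomes, among them Msx1 with Lhx4, and splitting these and distant genes gave 343 domains.

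Library totals ranged from 29283936 to 39198620 counts. Among 7 hair follicle stem cell markers and 5 basal keratinocyte markers, all exceeded 1 TPM, and the lists summed to 20735 to 26995 and 19693 to 28990 TPM across the libraries. The 3 suprabasal markers summed to 1619 to 4990 TPM (all above 1 TPM) and 4 sebaceous markers to 148 to 226 TPM (3 above 1 TPM). Markers of other cells were lower, with summed levels of 17.99 to 45.3 TPM for 7 fibroblast markers (2 above 1 TPM, Lum and Dpt at 0 counts), 14.6 to 16.0 TPM for 6 melanocyte markers (4 above 1 TPM) and 9.46 to 11.6 TPM for 5 Schwann cell markers (4 above 1 TPM). The 5 immune markers summed to 10.2 to 19.4 TPM (2 above 1 TPM, Lyz2 at 0 counts), the 6 Merkel cell markers to 4.47 to 5.31 TPM (1 above 1 TPM, Krt20 and Atoh1 at 0 counts) and the 5 endothelial markers to 0.239 to 0.373 TPM (Cdh5, Cldn5 and Emcn at 0 counts). The 4 muscle markers in the table summed to at most 0.255 TPM. The part that such cells play in any value below was not tested. In bulk libraries, fewer cells of a type and less RNA per cell cannot be told apart. Replicate 1 stood apart from the other two libraries, and values are therefore given for each library.

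The 702 genes comprised 317 protein-coding genes, 74 long intergenic noncoding RNA genes, 54 antisense genes, 54 microRNA genes, 44 processed pseudogenes, 42 genes annotated as miscellaneous RNA and smaller classes. Of the 342 domains, 172 held a single silent gene, 170 held several and 21 held at least 5, and 276 held a protein-coding one. The median domain value was 31113.5, with 96 domains at 40000 or more, 32 at 60000 or more and a highest value of 277425. In 312 domains no gene reached 1 TPM, while 30 domains combined 80 silent genes with an expressed gene. The 69 other genes with a value of at least 20000 were 55 expressed genes, 9 of them Hox genes, and 14 silent Hox genes.

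**Figure D1:**
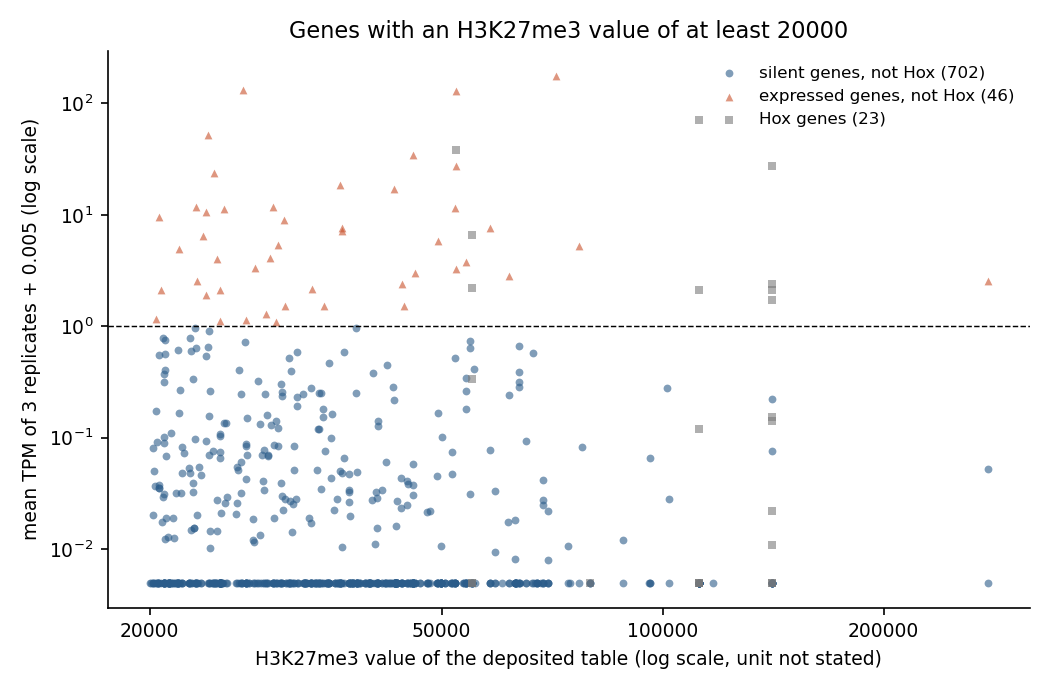
Each point is a gene with an H3K27me3 value of at least 20000 (horizontal axis, log scale); the vertical axis is the mean TPM over 3 replicates plus 0.005, on a log scale, and the dashed line marks 1 TPM. The 702 silent genes (circles) lie below the line by the rule, 479 of them on the lowest row at 0 counts, and the 46 expressed genes whose symbols do not start with Hox (triangles) lie above it.

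Upstream sequences are shown for a few of the silent protein-coding genes, since such loci are known for CpG richness. The 250 bases before the RefSeq start (GRCm38.p6) are given for the 6 regulator genes of the largest domains that had an entry in the RefSeq table, 5′ to 3′ on the gene's strand, with each CG dinucleotide in capitals. CG reads the same on both strands. All 6 encode transcription factors of the embryo: Evx2, Evx1, Uncx and Gbx2 are homeodomain proteins, and Nr2f2 and Nr2e1 are orphan nuclear receptors.
Evx2: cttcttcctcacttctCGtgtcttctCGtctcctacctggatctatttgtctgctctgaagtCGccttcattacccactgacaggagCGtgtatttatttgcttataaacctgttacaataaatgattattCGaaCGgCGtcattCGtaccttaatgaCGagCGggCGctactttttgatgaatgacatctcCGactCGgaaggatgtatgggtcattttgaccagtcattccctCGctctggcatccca
Evx1: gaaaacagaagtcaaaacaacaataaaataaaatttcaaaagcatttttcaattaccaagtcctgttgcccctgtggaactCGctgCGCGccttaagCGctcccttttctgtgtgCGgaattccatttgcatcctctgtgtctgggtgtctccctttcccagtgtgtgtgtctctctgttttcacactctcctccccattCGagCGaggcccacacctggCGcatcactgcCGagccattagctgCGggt
Uncx: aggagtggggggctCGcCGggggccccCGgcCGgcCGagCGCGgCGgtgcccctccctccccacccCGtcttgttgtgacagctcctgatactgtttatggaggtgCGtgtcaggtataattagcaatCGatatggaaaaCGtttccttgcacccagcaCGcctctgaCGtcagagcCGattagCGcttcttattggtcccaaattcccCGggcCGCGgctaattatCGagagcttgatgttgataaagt
Nr2f2: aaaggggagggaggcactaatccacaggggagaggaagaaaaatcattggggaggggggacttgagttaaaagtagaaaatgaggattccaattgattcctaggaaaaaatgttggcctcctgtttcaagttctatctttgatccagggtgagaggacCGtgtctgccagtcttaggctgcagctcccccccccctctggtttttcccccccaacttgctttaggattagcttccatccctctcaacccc
Gbx2: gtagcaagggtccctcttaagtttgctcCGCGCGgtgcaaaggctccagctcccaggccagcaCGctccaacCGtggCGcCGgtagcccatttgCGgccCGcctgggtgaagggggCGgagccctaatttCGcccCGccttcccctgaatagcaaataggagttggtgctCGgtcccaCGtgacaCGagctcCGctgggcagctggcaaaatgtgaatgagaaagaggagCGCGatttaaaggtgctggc
Nr2e1: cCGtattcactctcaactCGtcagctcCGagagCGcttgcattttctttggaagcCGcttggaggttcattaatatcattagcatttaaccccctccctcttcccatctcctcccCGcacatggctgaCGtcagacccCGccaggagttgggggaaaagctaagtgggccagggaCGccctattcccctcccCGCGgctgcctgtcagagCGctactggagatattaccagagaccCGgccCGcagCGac
These windows lie at chr2:74659558-74659807 on the minus strand for Evx2, chr6:52313248-52313497 on the plus strand for Evx1 and chr5:139543648-139543897 on the plus strand for Uncx. Those of Nr2f2, Gbx2 and Nr2e1 lie at chr7:70366747-70366996, chr1:89931177-89931426 and chr10:42583591-42583840, all on the minus strand. They held 14 CG dinucleotides for Evx2, 10 for Evx1, 20 for Uncx, 1 for Nr2f2, 18 for Gbx2 and 15 for Nr2e1, against a median of 6 over the 32851 upstream windows of this length in the RefSeq table. Nr2f2 was thus the lowest of the 6 in this window, although the observed over expected CpG ratio of its first 300 transcript bases, the measure used below, was 1.02. The RefSeq start of Uncx lies 404 bases from the GENCODE start, and those of the other 5 lie within 42 bases.

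For comparison, 2 genes that also had 0 counts in every library but an H3K27me3 value of 0 are shown: Sel1l2, at chr2:140389711-140389960 on the minus strand, and Ceacam20, a member of the carcinoembryonic antigen cell adhesion family, at chr7:19965162-19965411 on the plus strand.
Sel1l2: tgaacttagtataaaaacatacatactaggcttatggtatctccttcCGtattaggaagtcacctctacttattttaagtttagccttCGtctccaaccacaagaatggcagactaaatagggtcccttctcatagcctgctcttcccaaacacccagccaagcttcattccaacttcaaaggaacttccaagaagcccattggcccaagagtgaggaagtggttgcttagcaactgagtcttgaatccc
Ceacam20: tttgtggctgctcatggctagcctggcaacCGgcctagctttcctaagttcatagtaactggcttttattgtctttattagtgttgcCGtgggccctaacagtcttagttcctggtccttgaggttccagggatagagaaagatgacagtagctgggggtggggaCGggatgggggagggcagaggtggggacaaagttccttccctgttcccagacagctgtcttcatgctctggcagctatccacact
They held 2 and 3 CG dinucleotides, and the median over 1775 such genes in the RefSeq table was 2. Only 71.9% of the 317 protein-coding silent genes had an entry in that table, under the 80% needed to summarise the whole set from it, so the set was summarised from transcript starts, a choice made after seeing the data.

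In the first 300 bases of the longest annotated transcript, the median ratio of observed to expected CpG was 0.744 over the 317 genes, and 218 of them (68.8%, 95% Wilson interval 63.5 to 73.6) exceeded 0.6. Silent protein-coding genes with an H3K27me3 value of 0 had a median of 0.256, with 11.5% above 0.6. Silent genes with a value above 0 and under 20000 lay between, with 57.9% above 0.6, and expressed genes with a value of 0 had a median of 0.738 with 67.1% above 0.6. By this measure the 317 genes resembled expressed genes, and silent genes with smaller values above 0, more than they resembled silent genes with a value of 0. Within the 317 genes, 78.4% of the 153 genes on the regulator lists described below exceeded 0.6, and 59.8% of the 164 genes not on them. Over the first 100 bases, an alternative added after seeing the data, these shares were 67.97% and 64.02%, so most of that gap was lost. Genes of 1 domain are neighbours and not independent, so these shares are descriptions with no test.

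**Figure D2:**
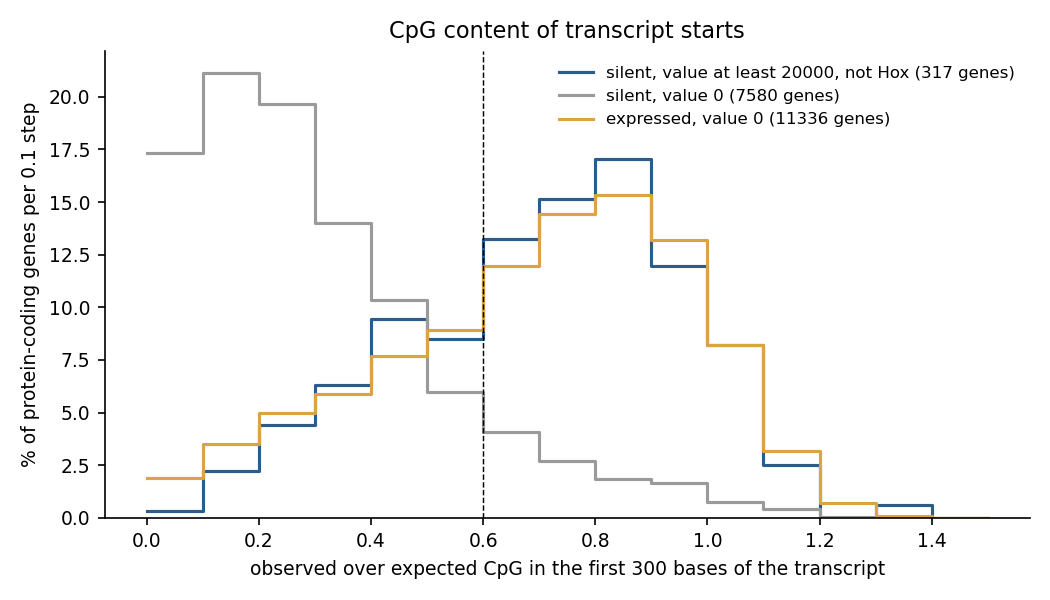
Share of protein-coding genes (vertical axis, % per step of 0.1) by the observed over expected CpG ratio of the first 300 transcript bases (horizontal axis), for 317 silent genes with an H3K27me3 value of at least 20000, 7580 silent genes with a value of 0 and 11336 expressed genes with a value of 0. The dashed line marks 0.6, which 68.8%, 11.5% and 67.1% of these genes exceeded.

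MicroRNA genes formed a further group. Of 36 entries named as microRNAs, in 22 domains, 34 had 0 counts in all libraries, while Mir542 and Mir351 had 1 count each in replicate 1. Polyadenylated RNA libraries do not measure mature microRNAs of about 22 bases, so these counts describe the loci and not the mature products. A mature sequence was in the RefSeq table (GRCm38.p6) for 34 of the 36. All 3 mouse loci of miR-9, a microRNA of the developing nervous system, were among them, with H3K27me3 values of 33186 (mmu-mir-9-1), 36341 (Mir9-2) and 24972 (Mir9-3), on chromosomes 3, 13 and 7. Both Hox cluster microRNAs of the miR-196 family in the set, Mir196b with a value of 111971 and Mir196a-2 with 54964, share a seed. The third locus of the family, Mir196a-1, which also encodes miR-196a-5p, had a large value too (52302) but was not silent, with 168, 130 and 86.4 TPM for a gene of 102 bases. Mir10b lay in the HoxD domain with a value of 140992. The X chromosome held the cluster of Mir106a, Mir18b, Mir20b, Mir19b-2, Mir92-2 and Mir363 (value 21215) and the cluster of Mir322, Mir503, Mir351, Mir542, Mir450-1, Mir450-2 and Mir450b (value 20922). Some mature sequences that share a seed (bases 2 to 8, in capitals) with another of the set or come from several of its loci are shown, with that of miR-10b-5p from the HoxD domain.
miR-9-5p: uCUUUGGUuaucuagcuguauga
miR-10b-5p: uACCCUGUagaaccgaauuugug
miR-196a-5p: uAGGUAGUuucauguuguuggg
miR-196b-5p: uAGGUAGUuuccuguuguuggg
miR-106a-5p: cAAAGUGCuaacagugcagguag
miR-20b-5p: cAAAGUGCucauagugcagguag
miR-363-3p: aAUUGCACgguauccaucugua
miR-92a-3p: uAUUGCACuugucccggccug
miR-34b-3p: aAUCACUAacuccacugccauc
miR-34c-3p: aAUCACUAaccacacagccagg
Each pair of lines with the same capitals is 1 seed group: miR-196a and miR-196b, miR-106a and miR-20b, miR-363 and miR-92a, and miR-34b-3p and miR-34c-3p, the last from 1 domain on chromosome 9 with a value of 20546.

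Most of the 702 genes had no reads at all. In all 3 libraries 479 (68.2%, 95% Wilson interval 64.7 to 71.6) had 0 counts, and so did 143 of the 317 protein-coding genes (45.1%, 39.7 to 50.6). Over genes of all types, 74.0% of silent genes with a value of 0 had 0 counts, and 50.0% of those with a value above 0 and under 20000. For protein-coding genes these 2 shares were 62.1% and 36.1%. A count of 0 allows 3 counts, which for these 143 genes is at most 0.0232 to 0.486 TPM (median 0.112) in the library with the highest limit. Intervals and limits cover counting error only. Of the 223 genes with any count, 70 had 1 to 3 counts in total and 73 had counts in every library. A mean of at least 0.1 TPM was reached by 79 genes and of at least 0.5 TPM by 22, 17 of them protein-coding.

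The libraries differed in how many of the genes they detected. Counts were found for 172, 117 and 136 of the 702 genes in replicates 1, 2 and 3, although replicate 1 was the shallowest. Their summed level was 42.6, 27.2 and 30.7 TPM (33.5 ± 8.04, SD, n = 3). Replicate 1 was the highest library for 100 genes, replicate 2 for 49 and replicate 3 for 74. Among protein-coding genes that were silent with a value of 0, 58.2% of those with counts were highest in replicate 1, so the lead of that library was not confined to the marked genes. Without replicate 1 the rule gave a share of 75.1% with 0 counts, over the other 2 libraries alone.

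Genes on lists of transcription regulators made up 153 of the 317 protein-coding silent genes (48.3%) and 359 of all 21426 protein-coding genes (1.68%). They were 0.612% of silent genes with a value of 0 and 5.14% of those with a value above 0 and under 20000. The lists were chosen with earlier results of these data known and do not hold every regulator of transcription. Sp6, Dmrt2 and Esx1, for example, are not on them. These shares therefore describe the lists and not all regulators, and the family counts below cover listed genes only. The 153 genes lay in 146 of the 342 domains, and in 54 of the 96 domains with a value of 40000 or more. Of all 359 listed regulators, 162 had a value of at least 20000, and 9 of those 162 were expressed. Among the 74 listed regulators that were expressed, 54 had a value of 0. No counts at all were found in any library for 81 of the 153 listed genes (52.9%, Wilson interval 45.1 to 60.7). The same held for 62 of the 164 genes not on the lists (37.8%, 30.7 to 45.4), some of which are also regulators. Median lengths of the listed and unlisted genes were 3246 and 3038.5 bases.

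**Figure D3:**
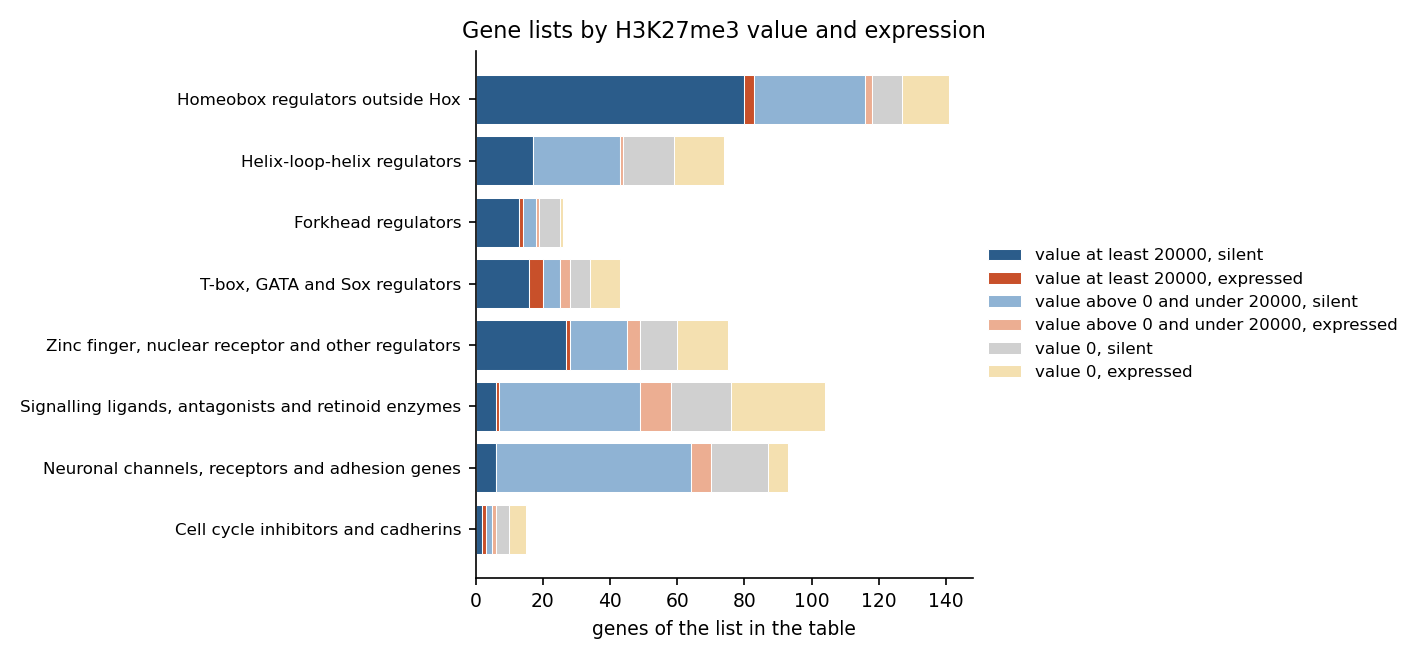
Genes of 8 lists (horizontal axis, number of genes in the table) split by H3K27me3 value and by expression (mean TPM of at least 1). Dark blue is silent with a value of at least 20000: 80 of 141 homeobox genes outside Hox, 13 of 26 forkhead genes and 6 of 104 signalling genes.

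Homeobox genes outside the Hox clusters, which encode homeodomain transcription factors of body patterning, formed the largest group of listed genes. The list is not complete and lacks, for example, Esx1, described below. Of its 141 genes in the table, 80 were silent in large domains, in 77 domains, and 48 of the 80 had 0 counts in all libraries. Evx2 (chromosome 2, 74652991 to 74659557) and Evx1 (chromosome 6, 52313498 to 52318378), which flank the HoxD and HoxA clusters, had 0, 0 and 0 counts, which allows up to 0.0664 and 0.0967 TPM. Uncx, a regulator of the vertebral column, had 0, 3 and 0 counts in replicates 1, 2 and 3. Pax3, a regulator of muscle and of melanocyte precursors, had the fourth-highest value of the list, 101396, and was detected in each library with 12, 33 and 24 counts, or 0.180, 0.390 and 0.252 TPM. The 6 melanocyte markers, 4 of them above 1 TPM, summed to 14.6 to 16.0 TPM in the same libraries.

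Below these came Gbx2 (88233), a regulator of the midbrain and hindbrain boundary, at 0 counts in all libraries, and Pax2 (74304), a regulator of kidney and optic development, with 1 count in total. The eye and nervous system regulators Vax2, Tlx1, Tlx3, Lbx1, En1, En2, Nkx6-1 and Emx2 had 0 counts in every library. So did the pancreas and gut regulators Pdx1 and Cdx2, which share the value 63209, and the heart regulator Nkx2-5 (53542). Pax6, the eye and brain regulator, had 8 counts over the 3 libraries, Six3 had 1 and Otx2 had 6. These genes belong to different organs.

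The highest of the 80 lay just below the limit. Zfhx3, a homeodomain and zinc finger factor with a value of 22700, had 1.01, 0.752 and 0.565 TPM from 191, 181 and 153 counts (mean 0.775 ± 0.223, SD, n = 3). Meis2, a partner of Hox proteins in limb and heart development with a value of 54612, had 0.585, 0.625 and 0.678 TPM (0.629 ± 0.0466). Tshz3 had 0.680, 0.482 and 0.570 TPM. The 3 libraries agreed closely for Meis2, whereas Zfhx3 was highest in replicate 1. Expressed homeobox genes of the list with such values were Dlx2, Dlx5 and Msx1; Cux1, which the list does not hold, is described below.

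Helix-loop-helix regulators, which include the factors that drive neurons, muscle and blood, contributed 17 of 74 genes, 8 of them with 0 counts. The largest values were those of Ebf2 (62981), with 0, 0 and 1 count, and of Hand2 (59032), Neurog1 (51453) and Olig2 (42565), regulators of heart and limb, sensory neurons and oligodendrocytes, each at 0 counts in all libraries. The limits that 0 counts allow were 0.118, 0.168 and 0.114 TPM for these 3 genes. Ebf1, a regulator of B cells and mesenchyme with a value of 30960, had 0.599, 0.554 and 0.392 TPM from 63, 74 and 59 counts. Twist1, a mesenchymal regulator, had 3, 6 and 1 counts, or 0.172, 0.271 and 0.0401 TPM. The fibroblast markers, at 17.99 to 45.3 TPM in sum with Lum and Dpt at 0 counts, are the values to set beside these mesenchymal genes.

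Forkhead regulators contributed 13 of 26 genes, 6 of them with 0 counts. Foxd1 (61618), a regulator of the kidney stroma, had 1, 0 and 0 counts. Foxd2 and Foxe3, neighbours on chromosome 4 with the value 49264, had 1, 3 and 0 and 0, 0 and 0 counts. Foxf2 (45438), a mesenchymal regulator, had 0 counts in all libraries. Foxe1, a regulator of thyroid and hair follicle development with a value of 30206, had 5, 6 and 25 counts, or 0.165, 0.156 and 0.578 TPM, and was thus highest in replicate 3. Foxd3, a neural crest regulator, had 1, 4 and 10 counts, or 0.0399, 0.126 and 0.279 TPM. Foxq1, a hair shaft regulator, was the expressed forkhead gene with a large value (24922), at 2.12 ± 0.120 TPM (SD, n = 3).

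T-box, GATA and Sox regulators contributed 16 of 43 genes, 8 of them with 0 counts. Gata4 (51721), a regulator of heart and endoderm, and Tbx18 (50565), which in skin is a gene of the dermal papilla lineage, had 0 counts in all libraries, allowing up to 0.0713 and 0.0590 TPM. Tbx15 (45044) had 4, 0 and 0 counts. Eomes (40895), a regulator of early mesoderm and of brain progenitors, had 1, 12 and 11 counts, or 0.0223, 0.211 and 0.172 TPM, and was lowest in replicate 1. Sox2 (40763), a pluripotency and neural factor that also marks Merkel cells and dermal papillae, had 1 count in total and was the only gene of the marker lists used here among the silent genes. Sox6 had 0.138, 0.0886 and 0.153 TPM. This was the list with most expressed genes in large domains, 4 in number: Tbx2, Tbx3, Gata3 and Gata6.

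Zinc finger, nuclear receptor and other regulators contributed 27 of 75 genes, 11 of them with 0 counts. Nr2f2 (96065), a nuclear receptor of veins, atria and many mesenchymal tissues, had 5, 9 and 7 counts, or 0.0538, 0.0762 and 0.0526 TPM. Nr2e1 (76862), a regulator of neural stem cells, had 0 counts in all libraries, allowing up to 0.0750 TPM. The Zic genes, regulators of the neural tube, form pairs of neighbours: Zic1 and Zic4 share the value 69873 with 4 and 1 counts over the libraries, and Zic2 and Zic5 share 68604 with 3 and 4. Insm1, a neuroendocrine regulator, had the highest mean of these 27 silent genes, with 0.0299, 0.118 and 0.230 TPM from 1, 5 and 11 counts. Prdm6, Prdm12 and Prdm13 were silent members of the PR domain family with 0 counts each, Prdm8 (40114) had 0, 0 and 5 counts, and Prdm16 was expressed.

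The remaining lists held few of the silent genes. Of 104 signalling ligands, antagonists and retinoid enzymes, 6 were among them: Gdf6, Fgf8, Cyp26c1, Cyp26a1, Wnt1 and Fgf3. Their counts over the 3 libraries were 2, 1, 0, 2, 0 and 0, and Cyp26a1 and Cyp26c1, which degrade retinoic acid, share the value 25525. By contrast, 42 of the 104 were silent with a value above 0 and under 20000. Of 93 neuronal channels, receptors and adhesion genes, 6 were among the silent genes and 58 were silent with a value above 0 and under 20000. Npy, which encodes a neuropeptide, had 5, 0 and 0 counts, all in replicate 1. Among 15 cell cycle inhibitors and cadherins, Cdh22 (67088) and Cdkn2a (49489) were silent with a value of at least 20000, both with 0 counts in all libraries.

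The 12 largest domains were not all regulator domains. The largest value, 277425, was shared by the homeobox gene Cux1, expressed at 2.15, 2.45 and 2.97 TPM, with Gm38082, an unclassified transcript inside the gene span of Cux1 with 2, 8 and 3 counts, and Myl10, a myosin light chain gene, with 0 counts. The value 140992 covered the HoxD cluster, with 10 silent genes outside the Hox symbols: Evx2, Mir10b, AL928644.1, Gm28309, Gm14396, Gm28793, Gm14424 and Gm14426 at 0 counts, Gm28230 with 8, 0 and 0 counts, and the noncoding Haglr with 10, 3 and 7 counts. The value 111971 covered the part of the HoxA cluster from Hoxa7 to Evx1, with 15 silent genes, the most of any domain. Evx1, Hottip, a long noncoding RNA of the HoxA cluster, Mir196b, 5730457N03Rik, 9530018H14Rik and 10 short genes annotated as miscellaneous RNA (Gm28032, Gm27492, Gm27695, Gm27817, Gm27454, Gm27543, Gm27280, Gm27985, Gm27383 and Gm27866) all had 0 counts. In the same domain Hoxa7 had 72.1, 69.4 and 69.7 TPM.

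The other domains of the 12 were that of the small nucleolar RNA gene Gm22312 (117241, 0 counts), the third-largest, those of Uncx with the noncoding RP23-400D9.3 (102132), Pax3 (101396) and Nr2f2 with the noncoding B130024G19Rik and Gm28258 (96065), and that of the noncoding Gm29009 (95959, 0 counts). Gbx2 shared 88233 with the noncoding D130058E05Rik, which had 0, 0 and 1 count. Gm11535, Gm27898 and Gm27605 (79594) had 0 counts, 1700108F19Rik (77659) had 0, 3 and 8 counts, and Nr2e1 shared 76862 with the expressed Ostm1, which encodes a lysosomal membrane protein.

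Other domains with many silent genes held copies and short genes. The Six3 domain (49825, chromosome 17) held 11: Six3 with 1, 0 and 0 counts, and Six3os1, Gm28528, Gm27178, Gm27435, Gm27801, Gm27610, Gm27283, Gm27275, Gm27502 and Gm27427 at 0. The Esx1 domain on the X chromosome (43190) also held 11, all at 0 counts: the placental homeobox gene Esx1, the small nucleolar RNA gene Gm25770 and the processed pseudogenes Gm8019, Gm5761, Gm15039, Gm15042, Gm15045, Gm15043, Gm15044, Gm15040 and Gm15041. A domain at the H2-T3 locus of chromosome 17 (53905) held 9, namely H2-T3, Gm8909, Gm9574, 2410017I17Rik, Gm17782, Gm6659, Gm20478, Gm6623 and Gm20495. Its neighbour (45689) also held 9, the pseudogenes Gm8835, Gm5682, Gm20392, Gm10074, Gm20545, Gm29402, Gm18604 and Gm20391 and the miscellaneous RNA Gm22453. How reads of near-identical copies were assigned was not stated, so a count of 0 in the last 3 of these domains is uncertain.

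Noncoding genes lay in domains with and without a regulator. Of the 146 domains with a silent regulator gene, 78 also held a silent noncoding gene or pseudogene, and 69 (47.3%) held a silent long noncoding RNA gene or unclassified transcript, as did 72 of the 196 other domains (36.7%). The silent genes of these long noncoding and unclassified types numbered 198, of which 159 had 0 counts and 101 lay in a regulator domain. Among noncoding silent genes and pseudogenes at 0 counts, 127 of 336 were so short that 0 counts still allows 1 TPM or more, and these cannot be called silent at this depth.

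In 30 domains a silent gene and an expressed gene carried the same value, and 21 of the 80 silent genes there were protein-coding. One of the 30 values was that of Msx1 and Lhx4, which lie on different chromosomes, and 29 such domains were left after splitting. The highest expressed gene was Hoxa7, in the HoxA domain described above (70.4 ± 1.50 TPM, SD, n = 3). Gata3, a regulator of the inner root sheath and of T cells, had 59.1, 50.5 and 45.8 TPM, while in its domain (24043) the overlapping gene 9230102O04Rik had 1.19, 0.391 and 0.347 TPM and the antisense gene Gm13262 had 0 counts. Rnf220, a ubiquitin ligase gene, had 31.0, 36.6 and 35.9 TPM beside Gm12826 and Gm12827 at 0 counts. Hoxd8 had 27.4, 27.8 and 27.03 TPM in the HoxD domain. In each library the named expressed gene exceeded every silent gene of its domain, a direction that the choice by mean TPM largely fixes.

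Protein-coding neighbours also differed. Apoo, a mitochondrial gene on the X chromosome, had 25.7, 15.1 and 14.1 TPM and Fam90a1b had 0.0921, 0 and 0.0429. Sp2, a widely expressed zinc finger factor, had 11.9, 18.8 and 20.2 TPM and Sp6, a regulator of tooth and skin appendages in the same family, had 0.0725, 0.190 and 0.371. Both genes of this pair were lowest in replicate 1. Asb8 had 14.1, 11.5 and 9.31 TPM and Ccdc184 had 0 counts. Mageh1 had 13.6, 10.5 and 9.89 TPM beside the noncoding 9530051G07Rik with 0.147, 0.0993 and 0.147. Gata6 had 12.7, 9.10 and 7.06 TPM beside the noncoding 1010001N08Rik with 2, 0 and 0 counts.

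The Dlx genes, homeobox regulators that lie in neighbouring pairs, were split within pairs. Dlx2 had 7.73, 12.1 and 11.9 TPM (10.6 ± 2.46, SD, n = 3) and its neighbour Dlx1 had 0.653, 0.582 and 0.360 (0.532 ± 0.153), from 38, 43 and 30 counts. Dlx1 overlaps the antisense gene Dlx1as, which had 4.27, 0.403 and 0.994 TPM, and the strand setting of the counting was not stated, so reads of these 2 genes may not be told apart. Dlx5 had 5.74, 9.10 and 7.85 TPM (7.56 ± 1.70) and Dlx6 had 0 counts in every library, which allows up to 0.117 TPM. Both expressed Dlx genes were lowest in replicate 1.

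A few further domains are named after their values were seen. Cdkn2b, which encodes the cell cycle inhibitor p15, had 60, 143 and 129 counts, or 4.00, 7.50 and 6.00 TPM, while its neighbour Cdkn2a, which encodes p16 and p19Arf, had 0 counts in all libraries, allowing up to 0.237 TPM. Tbx3 had 2.84 ± 0.494 TPM (SD, n = 3) while the antisense Tbx3os1 had 0.410, 0.254 and 0.0409 and Tbx3os2 and Gm16064 had 0 counts. Prdm16, the gene in the title of the series, was expressed with a value of 44173, and Gm13111, Gm13110 and Gm27202 of its domain had 0 counts. Hoxc5 was expressed at 6.58 ± 0.904 TPM in a domain (54964) where Hotair, a long noncoding RNA of the HoxC cluster, had 0 counts. Rsrc1 had 5.30 ± 1.62 TPM beside the homeobox gene Shox2 with 5, 0 and 5 counts, and Ostm1 had 5.26 ± 0.777 TPM beside Nr2e1 at 0. The aquaporin genes Aqp5 and Aqp6 share the value 20733, with 2.12 ± 0.496 TPM and 0 counts.

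**Figure D4:**
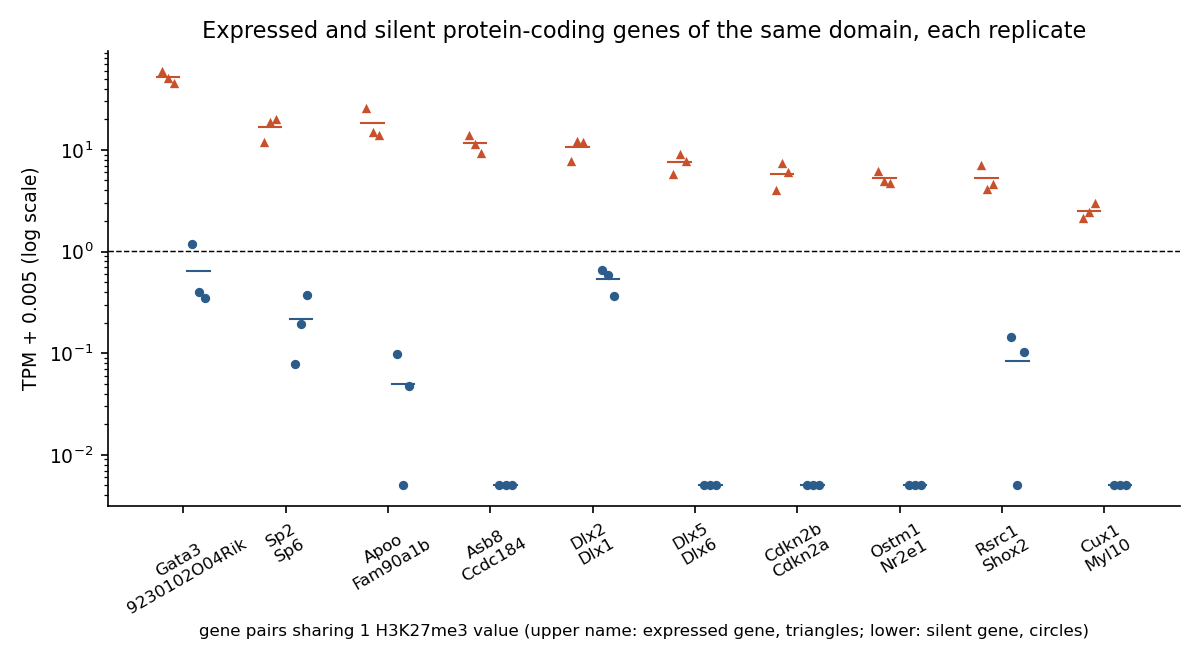
TPM plus 0.005 (vertical axis, log scale) of an expressed gene (triangles) and a silent protein-coding gene (circles) that share 1 H3K27me3 value, for 10 domains; each symbol is 1 replicate, short lines are means and the dashed line marks 1 TPM. Dlx6, Cdkn2a, Nr2e1, Myl10 and Ccdc184 sit at 0 counts in all 3 replicates, while 9230102O04Rik crosses the line in replicate 1 with 1.19 TPM.

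Some of the counts may be shared with overlapping genes, since the strand setting was not stated. On either strand, 31 of the 702 genes overlapped a gene with a mean of at least 1 TPM, and 20 of these 31 had counts (64.5%), against 203 of the 671 others (30.3%). Among the 22 genes with at least 0.5 TPM, 4 had such an overlap, among them B130046B21Rik with Prkag1, 9230102O04Rik with Gata3, and Dlx1 with Dlx1as. Reads of the overlapping partner were not separated here, and their part was not tested.

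The 17 protein-coding genes with a mean of at least 0.5 TPM are the part of the set nearest to expression. Besides Zfhx3, Meis2, Tshz3, Dlx1, Ebf1 and 9230102O04Rik they were Slc1a3, Lonrf3, Apln, Fcgr3, Trim36, Syt17, Dmrt2, Gpx7, B3gnt3, Pgm5 and Cd207, named after their values were seen. Slc1a3, a glutamate transporter gene, had 1.03, 0.505 and 0.813 TPM, and Apln, which encodes the peptide ligand apelin, had 0.913, 0.557 and 0.700. Dmrt2, a regulator of the somites, had 19, 31 and 1 counts, so replicate 3 lay far below the others. Fcgr3, an immunoglobulin receptor of myeloid cells, had 1.07, 0.126 and 0.710 TPM, and Cd207, the langerin gene that defines Langerhans cells, had 0.671, 0.480 and 0.383. In the same libraries the 5 immune markers summed to 10.2 to 19.4 TPM, and their part in these values was not tested.

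Some genes varied widely between libraries. The 6 with the largest range on the log2 scale were Gm6222 with 0, 0 and 26 counts, B130046B21Rik with 61, 10 and 0, 2700033N17Rik with 3, 18 and 0, 2310015K22Rik with 11, 2 and 47, the pseudogene Hsp25-ps1 with 8, 1 and 0, and Insl3 with 8, 0 and 0. No library was the high one throughout. The growth factor genes Igf2 (65068) and Igf1 (43476) showed the same at low counts, with 7, 12 and 0 and with 0, 0 and 10 counts.

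The genes nearest the limits of the rule were these. Just under 1 TPM lay Slc1a3 (0.783), Gm6222 (0.893), B130046B21Rik (0.961) and 2310015K22Rik (0.961), and just above it Slfn5 (1.09), Elovl3 (1.12), Gm11032 (1.14) and Tbx2 (1.16). Just inside the H3K27me3 limit were Gm12445 (20000), Fgf3 (20111), Osr1 and 1700022H16Rik (both 20189), and just outside Gm11431 (19970), Mecomos (19946), Rhox2b and Rhox3b-ps (both 19797).

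Across all protein-coding genes, Hox genes included, the share with at least 1 TPM was 60.4%, 58.7% and 58.5% in replicates 1, 2 and 3 for the 19027 genes with an H3K27me3 value of 0. It was 21.98% ± 0.727 for the 837 genes with a value above 0 and under 5000, 16.4% ± 0.552 for 724 genes under 10000, 13.8% ± 1.27 for 460 genes under 20000, 10.5% ± 1.78 for 258 genes under 40000 and 15.6% ± 0.962 for 120 genes at 40000 or more (mean ± SD, n = 3 libraries). The step from 0 to any value was thus larger than any difference among the values. The share of silent genes with 0 counts took another course. It was 62.1% at a value of 0, 37.9%, 34.9% and 34.8% in the next 3 classes, 42.2% (Wilson interval 36.0 to 48.6) from 20000 to under 40000 and 53.0% (43.3 to 62.5) at 40000 or more. Median gene lengths in these 6 classes were 2087, 3549.5, 4134, 3744, 3231 and 2692 bases, and the part of length in these shares was not tested.

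**Figure D5:**
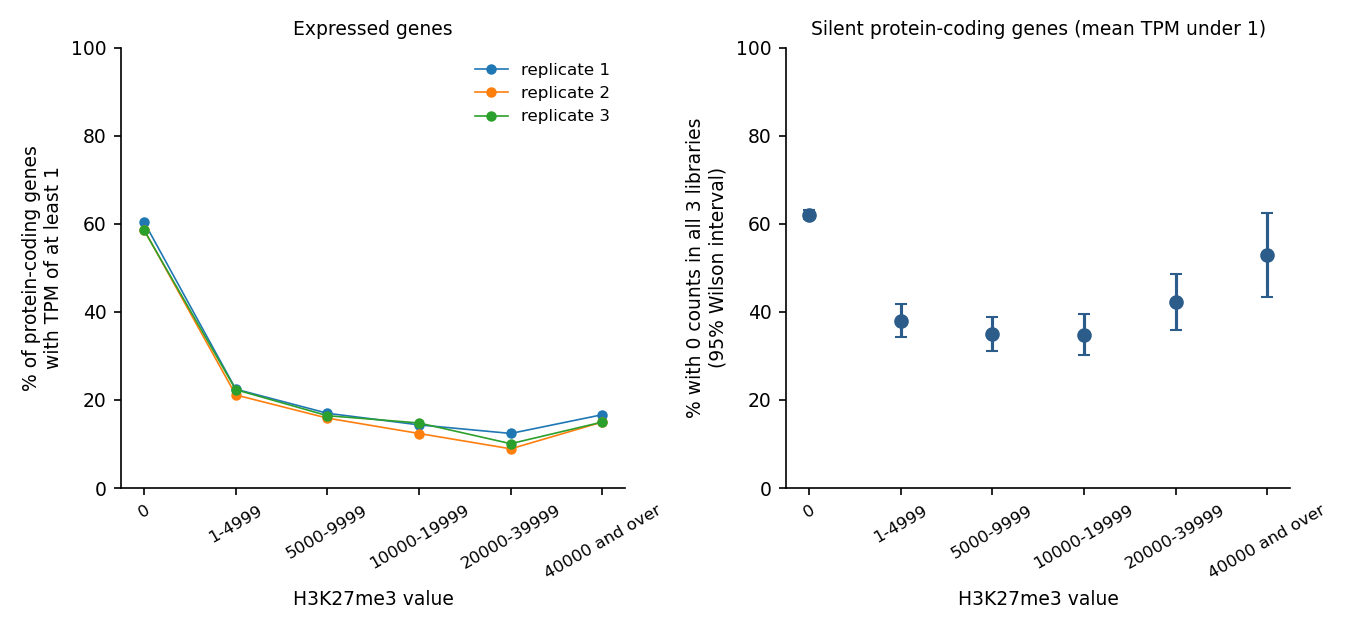
Left, the share of protein-coding genes with at least 1 TPM (vertical axis, %) in 6 classes of H3K27me3 value (horizontal axis), each line 1 replicate. Right, the share of silent protein-coding genes with 0 counts in all 3 libraries, with 95% Wilson intervals; it is 62.1% at a value of 0, lowest at 34.8% and 53.0% in the highest class.

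The comparison with bulge cells could be read only from the authors' deposited table, whose log2 fold change was taken from the column names to set the libraries studied here against bulge libraries, positive where the gene was higher here. The bulge libraries themselves were not analysed here. In the table that the authors deposited, 274 of the 702 genes had a fold change (93 positive, 181 negative, median -0.51), beside a median of -0.41 over the 24898 genes of the whole table that had one. An adjusted p-value was deposited for 119 of the 702. At an adjusted p-value under 0.05, 0 were higher and 23 lower (19.3%) in the authors' deposited table, which gives no unadjusted p-value and where 23.6% of all 20274 tested genes were higher, 32% lower and 55.5% either. Because the rule requires a low level in these libraries, a gene of the set could gain an adjusted p-value mainly through the other libraries, and nothing is read from the direction of these calls. For protein-coding genes, 14 of 91 (15.4%) of the set were lower in the authors' deposited table, against 155 of 698 (22.2%) of the silent genes with a value above 0 and under 20000 and 624 of 2111 (29.6%) of those with a value of 0.

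The lower calls included regulators. In the authors' deposited table Zfhx3 had a log2 fold change of -3.44 (adjusted p = 4.14e-43), Sox6 of -3.28 (7.68e-11), Ebf1 of -2.38 (2.51e-08) and Meis2 of -1.16 (0.00934). These are 4 of the more highly counted genes of the set, all detected in every library here. Tbr1, a T-box factor of cortical neurons, had a log2 fold change of -4.66 (0.00124) in the authors' deposited table with 0 counts in all 3 libraries here, so its value rests on the other libraries. The 8 most negative called values in the authors' deposited table were those of RP23-72O23.4 (-7.73), Gm13262 (-5.45), Gm38082 (-5.15), Gm37452 (-5.03), 2610027K06Rik (-4.90), Tbr1 (-4.66), Hsp25-ps1 (-4.60) and Zswim5 (-4.50). Of these, RP23-72O23.4, Gm13262, Gm38082 and 2610027K06Rik overlap an expressed gene (Ttc28, Taf3, Cux1 and Bcas3), and with the strand setting unstated, the part of those genes in the fold changes was not tested. The 8 called genes with the smallest fold changes in the authors' deposited table were Meis2, Plxna4 (-1.57), an axon guidance receptor gene, Zdbf2 (-1.95), Ebf1, Ntn1 (-2.50), which encodes the guidance cue netrin, Nhsl2 (-2.69), Lonrf3 (-3.08) and Sox6. The most positive fold changes with an adjusted p-value in the authors' deposited table, none of them called, were those of Sowaha (2.09, adjusted p = 0.191), Golga7b (2.07, 0.167) and Sp6 (1.97, 0.225). Of the 44 tested genes that were expressed in large domains outside Hox, 15 were higher (34.1%) and 7 lower (15.9%) in the authors' deposited table. They were chosen for a mean of at least 1 TPM in the libraries studied here, so nothing is read from this direction either.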

How the data were processed

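The authors deposited 1 table for the series, with whole-number counts per gene and library and TPM values computed from them, per the file headers. Per the submitters' processing notes the builds were mm10 and GRCm38 and the tools FastQC, SAMtools, TopHat2, DESeq2 and DESeq, with no role or version. The strand setting and the treatment of reads with several matches were not given in the sources used here. The authors' deposited table also held an H3K27me3 value per gene, used as a score of unstated unit, a log2 fold change and an adjusted p-value, all per the file headers. Another 6 columns of per-sample values matched no sample and were not used, so the fold change and adjusted p-value of the authors stand in for the comparison with them.

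The 3 samples form 1 group, so no test was run. Genes were placed by identifier with the GENCODE M21 annotation of GRCm38, which held 44392 of the 44625 entries. CpG ratios are observed CG over the number that the C and G content gives. Upstream and microRNA sequences came from RefSeq (GRCm38.p6). Scripts used Python 3.11.15 with pandas 2.3.3 and were tested on simulated data. The libraries held 29283936, 35264901 and 39198620 counts, and a count of 0 was read as up to 3 counts.

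The silent genes, gene lists and markers were chosen with earlier results of these data known. Genes named are those of the 12 largest domains and of those with most silent genes, the 4 largest and 2 highest of each list, the 10 mixed domains with the highest expressed gene, the 8 largest and 8 smallest called fold changes, the 4 genes on each side of each threshold, the 6 most variable genes and the markers, given here by list. Others are said to be chosen later or stand as examples of a list. Alternatives were other thresholds, protein-coding genes only, another scaling, split domains and leaving out each replicate. A few genes that the rule would name are not reported here.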

Additional observations from a re-analysis of the deposited data

How the results depend on the processing

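With an H3K27me3 value of at least 30000, 450 silent genes in 186 domains were left, 16 domains held a silent and an expressed gene, 74.2% of the silent genes had 0 counts and 10 were called lower in the authors' deposited table. With at least 15000, 64.3% had 0 counts. Protein-coding genes alone numbered 317. Among genes with at least 1 count, the share with 0 counts is 0% by construction and the median was 0.0607 TPM. Leaving out each replicate moved the share with 0 counts to between 70.6% and 75.1%, since fewer libraries are then searched for counts. The share was highest without replicate 1, the library with counts for the most genes of the set (172). CpG ratios above 0.6 were found for 54.0% of the silent genes of all types that had a sequence, an alternative added after seeing the data. The planned CpG measures on upstream windows gave no value, because too few genes had an entry. Listed regulator genes numbered 109 to 172 over the other thresholds and 153 to 154 without each replicate, alternatives added after seeing the data. Other scalings, thresholds on TPM and the split of domains moved no count by over 1.5 times. No paired analysis was possible because the 3 samples form 1 group.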

Other observations

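Silent protein-coding genes of large H3K27me3 domains lay on most chromosomes. On the X chromosome 76 of the 702 genes were found, of which 19 were protein-coding, 2.02% of its protein-coding genes. The highest shares were 2.70% on chromosome 19 and 2.38% on chromosome 12. In 157 of the 342 domains every silent gene had 0 counts in all 3 libraries.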
